A study of Mus musculus with 10 samples.

Results

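Collagens are the main structural proteins of the extracellular matrix, and the expression of their genes was examined in left atrial tissue around the pulmonary veins of adult mice. Collagen genes were taken as all genes whose name in the deposited annotation is Col, a number, a and a number, which gave 43 of 54532 genes. By collagen type they were sorted into 11 fibrillar genes (types I, II, III, V, XI, XXIV and XXVII), 6 basement membrane genes (type IV) and 26 other genes. The 10 libraries came from different mice, per the study's design, and formed a control group (Ctrl, n = 4, genotype R26creERT2/creERT2; Tbx5+/+) and a mutant group (CKO, n = 6, genotype R26creERT2/creERT2; Tbx5flox/flox). Both groups thus carried the tamoxifen-inducible Cre at ROSA26, a locus active in most cell types, and both received tamoxifen on 3 days at 6 weeks of age. Tissue was taken 1 week later, at 7 weeks of age, after the atrial appendage and most of the veins had been cut away. The comparison asks how collagen expression in this tissue depends on Tbx5, a T-box transcription factor of the atria. Since a bulk library pools all cells, fewer cells of a type and less RNA per cell cannot be told apart.

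Each collagen is a trimer of alpha chains wound into a triple helix, which requires a glycine at the start of each short repeat of the chain. Fibrillar collagens form the load-bearing fibres that fibroblasts lay down around heart muscle, type IV forms the sheet-like network beneath endothelium and around muscle cells, and the remaining types decorate fibrils, form filaments or hexagonal networks, or span the cell membrane. Many trimers are built from chains of different genes, called partner chains here, and such a trimer needs each of its chains.

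Library totals ran from 8602794 to 10040808 estimated counts. Exon 3 of Tbx5, which the floxed allele is built to delete, checked the genotype labels: its coverage relative to the median exon of the same transcript was 0.903 to 1.70 in Ctrl and 0.175 to 0.618 in CKO, although the summed Tbx5 level ranged over 89.6 to 159 CPM (Ctrl) and 167 to 425 CPM (CKO). Markers of heart muscle were abundant in all libraries, at a summed level of 85296 to 123357 CPM over the Ctrl libraries and 73847 to 133924 CPM over the CKO libraries. Scgb1a1, a secretory gene of the airway lining, reached 862 CPM (Ctrl 3) and 1452 CPM (CKO 4) but no more than 42.0 CPM in the other 8 libraries. Xist, the transcript of the inactive X chromosome, was at least 1004 CPM in Ctrl 1, Ctrl 2, CKO 1, CKO 2 and CKO 3 and at most 6.44 CPM in the other 5 libraries.

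The repeat that defines the family is visible in the coding sequence, and the classes differ in how it is interrupted. Coding exons of exactly 54 bases, which hold 6 whole repeats of 9 bases, made up 305 of 627 full coding exons of the fibrillar genes (48.6%), 4.23% of those of type IV genes and 14.2% of those of the other genes. The longest unbroken run of repeats had a median of 338 units in the fibrillar genes, with a lowest value of 216, against 43.5 units in type IV genes and 45 in the other genes. The exons of 42 of the 43 transcripts used for this matched the deposited annotation, the exception being Col11a2.

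The first 54-base exon inside the longest run is shown for the 4 fibrillar genes that the results turn on most, read 5′ to 3′ from the GRCm38 genome with the GENCODE M21 transcripts, with each glycine codon that opens a repeat (GGN) in capitals.
Col1a1 (chr11:94939904-94939957, plus strand): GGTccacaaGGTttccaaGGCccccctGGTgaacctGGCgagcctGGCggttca
Col1a2 (chr6:4515481-4515534, plus strand): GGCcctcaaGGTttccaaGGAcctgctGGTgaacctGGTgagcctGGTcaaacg
Col3a1 (chr1:45325360-45325413, plus strand): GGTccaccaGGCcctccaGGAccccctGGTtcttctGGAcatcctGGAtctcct
Col5a1 (chr2:27965251-27965304, plus strand): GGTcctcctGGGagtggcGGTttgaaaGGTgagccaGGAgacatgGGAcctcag

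A stretch around a break in the repeat is shown in the same way for Col4a1, Col4a2 and Col8a1, the chains of network-forming collagens with the clearest differences between groups. The break is the lower-case stretch that runs on past the 6 bases that normally separate 2 capital codons. It is longer than these by 6 bases in Col4a1 and Col8a1 and by 12 bases in Col4a2. In Col8a1 the stretch itself holds a glycine codon in frame, left in lower case, so the break there can also be read as a shortened repeat.
Col4a1 (chr8:11235141-11235209, minus strand): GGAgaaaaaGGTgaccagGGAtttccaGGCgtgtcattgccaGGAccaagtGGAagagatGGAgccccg
Col4a2 (chr8:11415955-11416029, plus strand): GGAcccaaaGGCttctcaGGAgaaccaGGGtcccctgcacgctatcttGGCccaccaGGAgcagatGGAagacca
Col8a1 (chr16:57628687-57628755, minus strand): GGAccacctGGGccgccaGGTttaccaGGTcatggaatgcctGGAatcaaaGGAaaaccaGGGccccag

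Col4a1 and Col4a2 stand head to head on chromosome 8 of GRCm38, and their annotated 5′ ends overlap by 22 bases. The RefSeq promoter window of Col4a1 (GRCm38.p6, chr8:11312777-11313076, minus strand, 250 bases before to 50 after the start site) is shown because Col4a1 passed the test and both genes had fold changes above 0 in all 21 alternative settings tried. Capitals mark the 78 bases that it shares with the window of Col4a2.
Col4a1 promoter: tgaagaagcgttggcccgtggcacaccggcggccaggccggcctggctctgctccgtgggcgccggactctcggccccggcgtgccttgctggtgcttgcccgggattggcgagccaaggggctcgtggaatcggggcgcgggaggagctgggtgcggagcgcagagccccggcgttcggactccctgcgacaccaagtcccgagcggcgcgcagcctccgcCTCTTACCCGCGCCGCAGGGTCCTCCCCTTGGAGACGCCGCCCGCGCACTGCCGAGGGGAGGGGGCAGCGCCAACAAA
Promoters were found for 34 of the 43 collagen genes, with 37 windows in all, and were searched on both strands. The GC box core GGGCGG was in 23 of the 37 windows (62.2%), against 35.7% of 32851 mouse promoter windows of the same length. The T-box half-site GGTGTG was in 9 of 37 (24.3%, against 19.05% of all windows), the CCAAT box in 13 (35.1%, against 37.4%) and TATAAA in 5 (13.5%, against 13.6%). These matches describe letters in the windows and do not show binding.

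Type III, type I, type IV and type VI chains dominated the collagen transcripts. On the TPM scale, which corrects for transcript length and library size, Col3a1 was the most abundant collagen gene, at 768 to 1317 TPM in Ctrl and 1391 to 2359 TPM in CKO, and took between 33.9% and 49.2% of the summed collagen TPM of a library. Col1a2, the minor chain of type I, followed at 286 to 366 TPM in Ctrl and 405 to 533 TPM in CKO. Col4a1, a chain of the ubiquitous type IV network, stood at 126 to 197 TPM in Ctrl and 213 to 266 TPM in CKO. Col6a1, of the beaded filaments of type VI, stood at 109.6 to 172 TPM in Ctrl and 162 to 211 TPM in CKO, and Col1a1, the major chain of type I, at 113 to 169 TPM in Ctrl and 152 to 245 TPM in CKO. The ranges of Col4a1, Col6a1 and Col1a1 overlapped, so their order was not set by these libraries, while all libraries had Col3a1 above Col1a2 and Col1a2 above those 3. A mean of at least 100 TPM was found for 10 of the 43 genes, 10 to 100 TPM for 11, 1 to 10 TPM for 9 and under 1 TPM for 13. Genes under 1 TPM included Col2a1, Col9a1, Col9a2 and Col9a3, the collagens of cartilage, whose summed counts over the 10 libraries were 24, 9, 41 and 30.

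**Figure D1:**
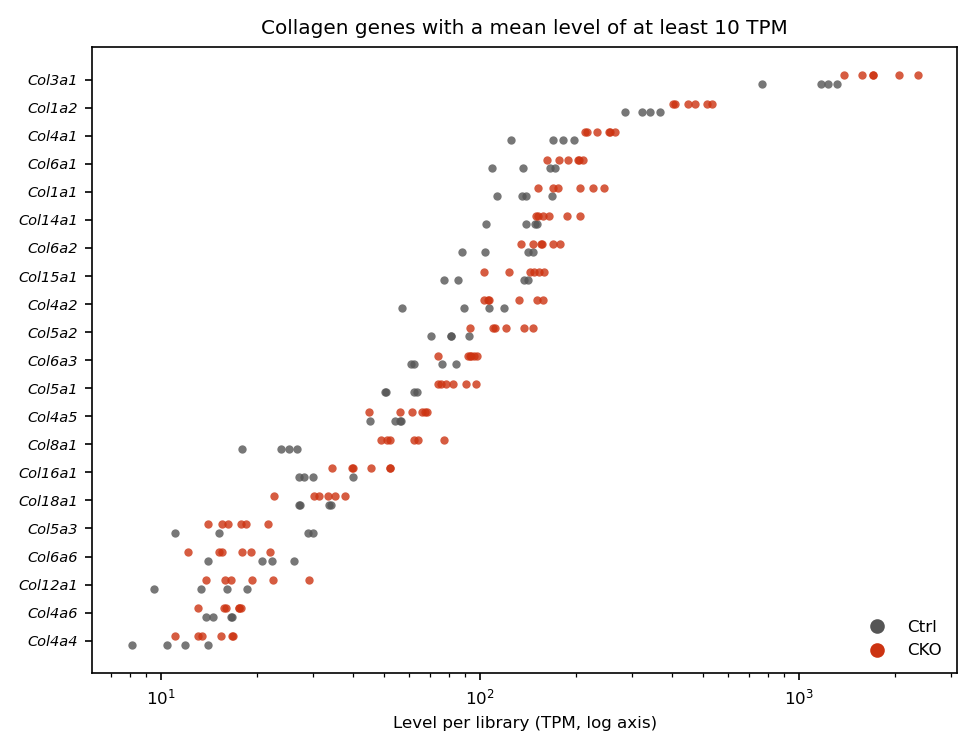
Level of each of the 21 collagen genes with a mean of at least 10 TPM, per library (TPM on a log axis), with Ctrl libraries in grey and CKO libraries in red. Col3a1 lies above all others in every library, and Col1a2 is next.

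Of the 43 genes, 36 had enough counts to be tested (9 fibrillar, 6 basement membrane and 21 other). Under edgeR's quasi-likelihood test with Benjamini-Hochberg adjustment over 17752 genes, 3 collagen genes rose in CKO, namely Col8a1, Col4a1 and Col16a1, where 1.54% of all tested genes were called higher and 2.8% in either direction. No collagen gene was called lower (0 of 36, with 1.26% of all tested genes called lower), and 1 had an unadjusted p under 0.05 in that direction (8.14% of all tested genes). At that unadjusted threshold 17 were higher, where 8.86% of all tested genes were. DESeq2 called 11 higher and 0 lower, where it called 3.91% of all genes higher. Fold changes were above 0 for 25 of the 36 genes (46.6% of all tested genes), with a median log2 fold change of 0.39 against -0.03 for all tested genes. By level, 19 of the 21 genes with a mean of at least 10 TPM had a fold change above 0, as did 6 of the 15 tested genes under 10 TPM. CPM, counts scaled by TMM-adjusted library size, did not overlap between the groups, with CKO higher, for 8 of the 36 tested genes (3.03% of all tested genes). On the TPM scale Col4a2, Col4a5 and Col16a1, but not Col8a1, Col4a1, Col3a1, Col1a2 and Col5a1, overlapped between the groups.

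**Figure D2:**
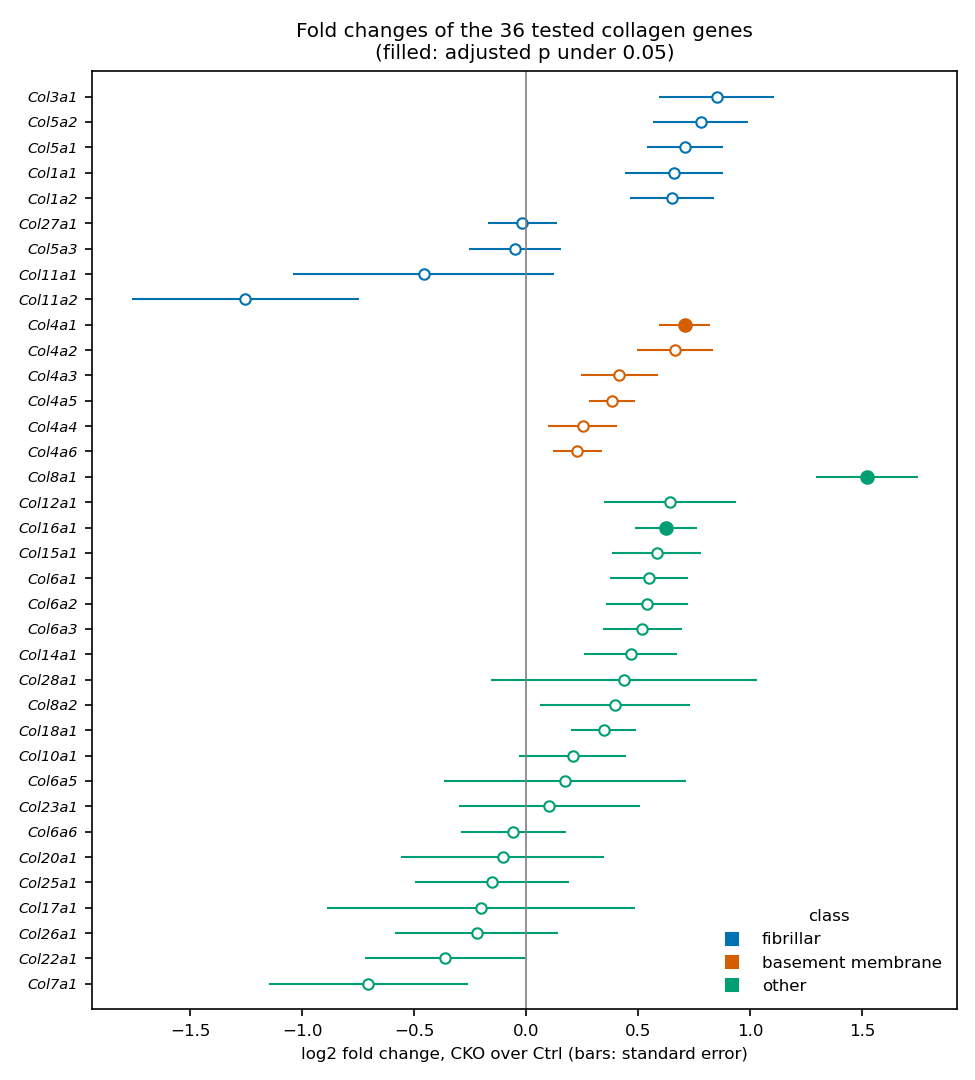
Log2 fold change of CKO over Ctrl for the 36 tested collagen genes, by class, with standard errors as bars and filled points for an edgeR adjusted p under 0.05. Col8a1, Col4a1 and Col16a1 are filled, and all 6 type IV genes lie above 0.

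**Figure D3:**
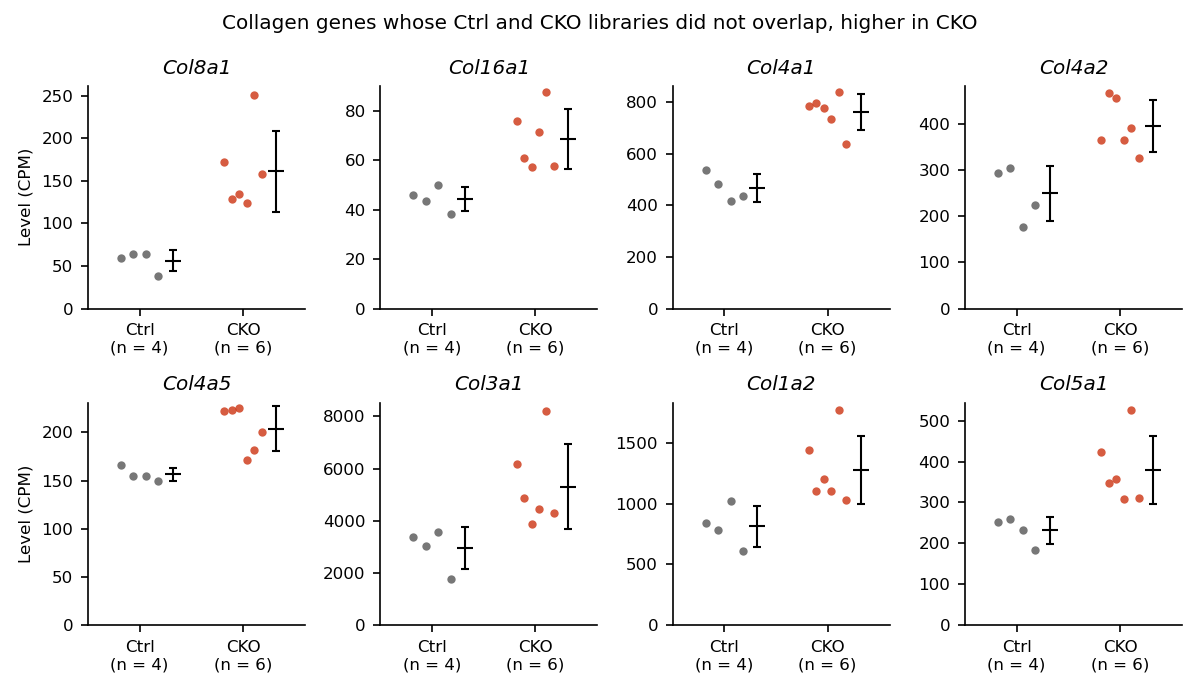
Level per library (CPM, linear axes from 0) of the 8 tested collagen genes whose groups did not overlap in CPM, with Ctrl in grey (n = 4) and CKO in red (n = 6). Dashes with bars give the mean and SD, and CKO 5 is the highest library in 6 of the 8 panels.

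Among the fibrillar genes none passed the adjusted threshold, and the 5 abundant ones had the 5 highest fold changes of the class. Col3a1 stood at 3392, 3044, 3571 and 1769.9 CPM in Ctrl 1 to 4, and its lowest, median and highest CKO levels were 3863, 4654 and 8210.2 CPM. Every CKO library lay above the highest Ctrl library, with CKO 5 highest and Ctrl 4 lowest of all. The log2 fold change of Col3a1, the chain of the homotrimer that gives tissue its pliable fibres (chr1:45311538-45349706 in GRCm38), was 0.85 (SE 0.26, edgeR adjusted p = 0.115). Col1a2 stood at 839, 785, 1021 and 613 CPM in Ctrl 1 to 4, and its lowest, median and highest CKO levels were 1034, 1154 and 1775 CPM. These groups did not overlap either, by a margin of less than the Ctrl SD, since Ctrl 3 at 1021 CPM lay just below CKO 6 at 1034 CPM. The log2 fold change of Col1a2 was 0.65 (SE 0.19, edgeR adjusted p = 0.102). Its partner in the type I trimer overlapped between the groups. Col1a1 stood at 388, 467, 418 and 279.8 CPM in Ctrl 1 to 4, and its lowest, median and highest CKO levels were 451, 582 and 917 CPM, for a log2 fold change of 0.66 (SE 0.22, edgeR adjusted p = 0.159).

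Type V collagen sits inside type I fibrils and sets their diameter. Col5a1 stood at 252, 259, 232 and 184 CPM in Ctrl 1 to 4, and its lowest, median and highest CKO levels were 309, 351 and 527 CPM. The groups did not overlap, and the log2 fold change of 0.71 (SE 0.17, edgeR adjusted p = 0.0511) lay just outside the threshold. Col5a2 stood at 248, 225, 303 and 183 CPM in Ctrl 1 to 4, and its lowest, median and highest CKO levels were 302, 365 and 614 CPM. Here CKO 3 at 302 CPM fell just under Ctrl 3 at 303 CPM, so the groups overlapped at that point alone, and the log2 fold change was 0.78 (SE 0.21, edgeR adjusted p = 0.0869). Col3a1 and Col5a2 are neighbours on chromosome 1, tail to tail with 24614 bases between them. Col5a3, the third chain of type V, stood at 55.7 ± 19.8 CPM (SD, n = 4) in Ctrl against 53.8 ± 6.90 CPM (SD, n = 6) in CKO. Its log2 fold change was -0.05 (SE 0.20, edgeR adjusted p = 0.926), and Ctrl 1 and 2, at 73.4 and 72.1 CPM, stood apart from Ctrl 3 and 4 at 35.9 and 41.4 CPM. Without CKO 4 the edgeR adjusted p of Col5a1 was 0.0438 and it joined the called genes, whereas without Ctrl 4 it was 0.147. Col5a1 was called in 3 of the 21 alternative settings.

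The remaining fibrillar genes were scarce. Col27a1, a chain known from cartilage, stood at 12.03 ± 0.434 CPM (SD, n = 4) in Ctrl against 11.9 ± 2.12 CPM (SD, n = 6) in CKO, for a log2 fold change of -0.02 (SE 0.15, edgeR adjusted p = 0.969). Col11a2, a type XI chain, had the lowest fold change of all tested collagen genes, -1.25 (SE 0.51, edgeR adjusted p = 0.242), at 4.90 ± 3.29 CPM (SD, n = 4) in Ctrl against 2.04 ± 1.27 CPM (SD, n = 6) in CKO. Its groups overlapped, with Ctrl 2 alone at 9.72 CPM. Col11a1 was at 2.14 ± 1.04 CPM (SD, n = 4) in Ctrl against 1.54 ± 1.34 CPM (SD, n = 6) in CKO, for a log2 fold change of -0.46 (SE 0.58, edgeR adjusted p = 0.727). Col2a1 and Col24a1 were not tested, with 24 and 92 counts over all libraries, and 20 of the 24 counts of Col2a1 came from CKO 4, which also held airway transcripts.

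All 6 type IV genes had fold changes above 0 (median log2 fold change 0.40), and Col4a1 (chr8:11198423-11312826) passed the test. Col4a1 stood at 536, 481, 415 and 438 CPM in Ctrl 1 to 4, and its lowest, median and highest CKO levels were 638, 783 and 842 CPM. All 6 CKO libraries lay above the highest Ctrl library, with a gap between 536 and 638 CPM, and the gene rose by 0.71 (SE 0.11, edgeR adjusted p = 0.00799) on the log2 scale. Col4a2 stood at 295, 304, 178 and 224 CPM in Ctrl 1 to 4, and its lowest, median and highest CKO levels were 327, 379 and 469 CPM. The partner chain of the same trimer thus did not overlap either, and its log2 fold change was 0.66 (SE 0.17, edgeR adjusted p = 0.0642). The 22 bases in which both genes overlap on opposite strands are a small part of either transcript. On log2 TPM with limma the adjusted p of Col4a1 was 0.0665. Col4a2 was called in 2 of the 21 alternative settings, with Xist as a covariate and with DESeq2, and without Ctrl 4 its edgeR adjusted p was 0.186. Within the 5 libraries of high Xist the log2 fold change of Col4a1 was 0.64 (edgeR adjusted p = 0.0509) and within the 5 of low Xist 0.81 (edgeR adjusted p = 0.399).

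Col4a5 and Col4a6 encode X-linked chains that share a promoter region, with 1308 bases between the annotated genes. Col4a5 stood at 166, 155, 155 and 149.6 CPM in Ctrl 1 to 4, and its lowest, median and highest CKO levels were 171, 211 and 225 CPM. CKO 4 was the lowest CKO library and still lay above Ctrl 1, so the groups did not overlap, and the log2 fold change was 0.38 (SE 0.10, edgeR adjusted p = 0.0783). Without CKO 4 its edgeR adjusted p was 0.0438 and with Xist as a covariate 0.0371, whereas without Ctrl 4 it was 0.201. Col4a5 was called in 3 of the 21 alternative settings. Col4a6 stood at 42.8, 40.3, 55.7 and 40.2 CPM in Ctrl 1 to 4, and its lowest, median and highest CKO levels were 46.8, 52.6 and 56.6 CPM, and Ctrl 3 at 55.7 CPM lay among the CKO libraries. The log2 fold change of Col4a6 was 0.23 (SE 0.11, edgeR adjusted p = 0.318). Col4a3 and Col4a4, chains known from the kidney filter and the lung, stand head to head with 71 bases between them. Col4a3 was at 22.2 ± 6.30 CPM (SD, n = 4) in Ctrl against 29.6 ± 2.87 CPM (SD, n = 6) in CKO with a log2 fold change of 0.41 (SE 0.17, edgeR adjusted p = 0.252). Col4a4 was at 52.6 ± 11.4 CPM (SD, n = 4) in Ctrl against 62.6 ± 7.95 CPM (SD, n = 6) in CKO with a log2 fold change of 0.25 (SE 0.15, edgeR adjusted p = 0.433). The groups overlapped in both genes, and 563 exonic bases of Col4a3 lie opposite C430014B12Rik, whose reads cannot be told apart from its own if strand was not marked.

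Among the other collagens, Col8a1 (chr16:57624258-57754737) had the highest fold change of all 36 tested genes. Col8a1 stood at 59.7, 63.6, 63.5 and 38.0 CPM in Ctrl 1 to 4, and its lowest, median and highest CKO levels were 123, 146 and 251 CPM. The lowest CKO library, CKO 4, stood at 123 CPM, against 63.6 CPM in the highest Ctrl library, Ctrl 2. Col8a1, a chain of the short-chain network collagen made by vessel walls and endothelium, rose by 1.52 (SE 0.23, edgeR adjusted p = 0.00634) on the log2 scale, with means of 56.2 ± 12.3 CPM (SD, n = 4) in Ctrl against 161 ± 47.7 CPM (SD, n = 6) in CKO. Within the libraries of high Xist its log2 fold change was 1.24 (edgeR adjusted p = 0.0286) and within those of low Xist 1.82 (edgeR adjusted p = 0.346). Col8a2 stood at 5.07, 6.12, 8.11 and 2.21 CPM in Ctrl 1 to 4, and its lowest, median and highest CKO levels were 4.18, 6.86 and 9.96 CPM. This type VIII chain was scarce, its groups overlapped, and its log2 fold change was 0.40 (SE 0.33, edgeR adjusted p = 0.577).

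Fibril-associated collagens bind the surface of fibrils. Col16a1 stood at 46.1, 43.5, 49.97 and 38.4 CPM in Ctrl 1 to 4, and its lowest, median and highest CKO levels were 57.4, 66.2 and 87.6 CPM. The groups did not overlap, and Col16a1 (chr4:130047840-130099283) rose by 0.62 (SE 0.14, edgeR adjusted p = 0.0371) on the log2 scale. The rise holds for the gene as a sum of its transcripts. Its longest transcript (5206 bases) had means of 14.5 TPM in Ctrl and 10.9 TPM in CKO, and ran from 0 in CKO 5 to 23.0 TPM in CKO 1. This call was the least stable of the 3: the adjusted p was above 0.05 without Ctrl 1, 2 or 4 and without CKO 1, 2 or 4, at up to 0.125, and within neither Xist group was the gene called (log2 fold changes 0.54 and 0.73). Col14a1 stood at 404, 370.4, 402 and 229 CPM in Ctrl 1 to 4, and its lowest, median and highest CKO levels were 390.4, 434 and 667 CPM. CKO 4 and CKO 6 lay below Ctrl 1 and 3, and the log2 fold change of Col14a1 was 0.47 (SE 0.21, edgeR adjusted p = 0.283). Col12a1 was at 41.3 ± 11.4 CPM (SD, n = 4) in Ctrl against 64.5 ± 26.4 CPM (SD, n = 6) in CKO, with CKO 1 highest, for a log2 fold change of 0.64 (SE 0.29, edgeR adjusted p = 0.295). Col20a1 and Col22a1 were scarce, at 3.324 ± 1.99 CPM (SD, n = 4) in Ctrl against 3.09 ± 1.29 CPM (SD, n = 6) in CKO and at 2.72 ± 1.07 CPM (SD, n = 4) in Ctrl against 2.11 ± 0.804 CPM (SD, n = 6) in CKO, with log2 fold changes of -0.11 and -0.36.

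The 3 main chains of type VI, which form one trimer of beaded filaments between basement membrane and fibrils, had close fold changes. Col6a1 stood at 333, 318, 295 and 195 CPM in Ctrl 1 to 4, and its lowest, median and highest CKO levels were 330.2, 401 and 522 CPM. Only CKO 6 overlapped with Ctrl, and the log2 fold change of Col6a1 was 0.55 (SE 0.17, edgeR adjusted p = 0.14). Col6a2 stood at 287, 282, 229 and 166 CPM in Ctrl 1 to 4, and its lowest, median and highest CKO levels were 273, 347 and 442 CPM, for a log2 fold change of 0.54 (SE 0.18, edgeR adjusted p = 0.162). Col6a3 stood at 321, 278, 258 and 200.2 CPM in Ctrl 1 to 4, and its lowest, median and highest CKO levels were 284, 357 and 491 CPM, for a log2 fold change of 0.52 (SE 0.17, edgeR adjusted p = 0.161). In each chain CKO 5 was highest and Ctrl 4 lowest. Of the chains with more restricted expression, Col6a6 was at 84.9 ± 21.4 CPM (SD, n = 4) in Ctrl against 81.6 ± 24.8 CPM (SD, n = 6) in CKO (log2 fold change -0.06) and Col6a5 at 15.4 ± 9.45 CPM (SD, n = 4) in Ctrl against 17.3 ± 12.9 CPM (SD, n = 6) in CKO (log2 fold change 0.17). Col6a4 had 34 counts in all and was not tested.

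Col15a1 and Col18a1, multiplexins of the vascular basement membrane, stood at 249 ± 64.9 CPM (SD, n = 4) in Ctrl against 373 ± 72.02 CPM (SD, n = 6) in CKO and at 57.3 ± 4.38 CPM (SD, n = 4) in Ctrl against 72.8 ± 15.4 CPM (SD, n = 6) in CKO. Their log2 fold changes were 0.58 (SE 0.20, edgeR adjusted p = 0.165) and 0.35 (SE 0.15, edgeR adjusted p = 0.257), and the groups overlapped in both. Of the transmembrane collagens, Col13a1, known from the neuromuscular junction and cell contacts, was the only collagen gene whose Ctrl libraries all lay above its CKO libraries. Of the 36 tested collagen genes 0 did so, where 2.7% of all tested genes did. Col13a1 stood at 3.17, 5.35, 0.666 and 0.886 CPM in Ctrl 1 to 4, at 0 in CKO 1 to 4, and at 0.655 and 0.339 CPM in CKO 5 and 6, so that Ctrl 3 exceeded CKO 5 by a small margin only. These are 30, 49, 6 and 8 counts in Ctrl against 6 and 3 counts in CKO 5 and 6, which did not pass the filter, and without the filter its edgeR adjusted p was 0.121. Col23a1, Col25a1 and Col17a1 had log2 fold changes of 0.10, -0.15 and -0.20 at no more than 18.3 CPM in any library. Col7a1, the anchoring fibril of skin, had 2.59 ± 1.33 CPM (SD, n = 4) in Ctrl against 1.58 ± 0.811 CPM (SD, n = 6) in CKO and a log2 fold change of -0.71 (SE 0.44, edgeR adjusted p = 0.448). Col10a1, Col26a1 and Col28a1 completed the class, with log2 fold changes of 0.21, -0.22 and 0.44 and overlapping groups.

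Summed over each class, collagen levels were higher in every CKO library than in any Ctrl library on the CPM scale. The fibrillar sum was 5208, 4876, 5602 and 3090.5 CPM in Ctrl 1 to 4, with a lowest, median and highest CKO value of 6468, 6978 and 12114 CPM, a ratio of means of 1.72. Col3a1 made up most of it, with means of 2944 CPM in Ctrl and 5306 CPM in CKO, so the sum mainly follows Col3a1. Of the 9 tested fibrillar genes 4 had fold changes below 0. The basement membrane sum, led by Col4a1 and Col4a2, was 1114, 1072, 886 and 903 CPM in Ctrl 1 to 4, with a lowest, median and highest CKO value of 1310.0, 1549 and 1626 CPM, a ratio of 1.52. The sum of the other genes was 1983, 1904, 1783 and 1249.8 CPM in Ctrl 1 to 4, with a lowest, median and highest CKO value of 2059, 2358 and 3236 CPM, a ratio of 1.45. CKO 5, with the highest fibrillar sum, also had the lowest sum of heart muscle markers (73847 CPM), and Ctrl 4 had the lowest fibrillar sum beside 117741 CPM of those markers. Ctrl 3 had 85296 CPM of the markers beside a fibrillar sum of 5602 CPM, and CKO 4 had 89944 CPM beside only 6737 CPM. Most of the marker sum was Ttn, with means of 64603 CPM in Ctrl and 64519 CPM in CKO. The part of heart muscle content in the difference was not tested. On the TPM scale the ratios were 1.53, 1.34 and 1.29, and the groups then overlapped for the other genes. In CKO the type IV sum had an SD of 126 CPM about a mean of 1508 CPM, and the fibrillar sum an SD of 2243 CPM about 8056 CPM. These sums are descriptions and carry no test.

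**Figure D4:**
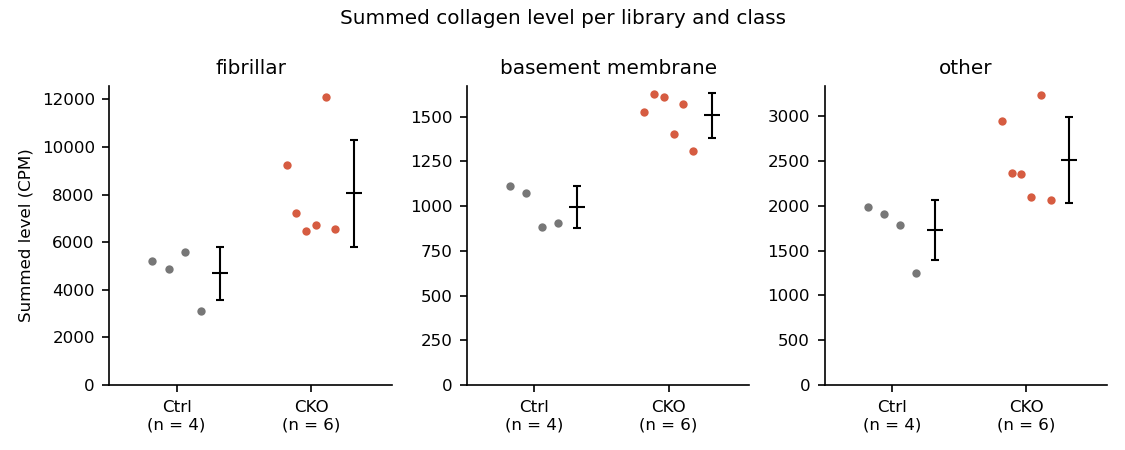
Summed level of the collagen genes of each class per library (CPM, linear axes from 0), with Ctrl in grey (n = 4) and CKO in red (n = 6) and the mean and SD beside them. The groups do not overlap in any class, and the fibrillar sum reaches its highest value in CKO 5.

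Ratios between collagen genes, most of them partner chains of a trimer, overlapped between the groups for all 10 pairs examined, on the TPM scale. The ratio of Col6a1 to Col6a2 was 1.17 to 1.31 in Ctrl and 1.14 to 1.297 in CKO, the narrowest of the pairs. That of Col1a2 to Col1a1 was 1.91 to 2.69 in Ctrl and 2.099 to 2.68 in CKO. That of Col4a1 to Col4a2 was 1.42 to 2.19 in Ctrl and 1.68 to 2.20 in CKO. For Col8a1 over Col8a2 the spread was wide, 6.98 to 15.5 in Ctrl and 13.2 to 36.1 in CKO, with CKO 5 and CKO 6 above all others. Col5a1 over Col5a3 was 2.13 to 4.58 in Ctrl and 3.61 to 5.60 in CKO, and only Ctrl 3 overlapped with CKO.

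Genes that make, cut, bind or sense collagen were examined from lists of known members. Over all tested genes 1.54% were called higher, 1.26% were called lower and 46.6% had a fold change above 0. Of 20 tested genes for collagen folding and modification, Plod2 rose and none fell, with 15 of 20 fold changes above 0. Plod2, a lysyl hydroxylase whose product allows stable crosslinks, stood at 63.5 ± 3.49 CPM (SD, n = 4) in Ctrl against 103 ± 12.98 CPM (SD, n = 6) in CKO, a log2 fold change of 0.69 (SE 0.11, edgeR adjusted p = 0.00822). Its groups did not overlap. Of 12 tested genes for procollagen processing and crosslinking, Adamts2, the protease that removes the amino-terminal propeptide of fibrillar procollagens, rose by 0.86 (SE 0.16, edgeR adjusted p = 0.0155) on the log2 scale, and none fell. It stood at 126 ± 19.5 CPM (SD, n = 4) in Ctrl against 229 ± 40.5 CPM (SD, n = 6) in CKO.

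Of 11 tested collagen receptors, Lair1, an inhibitory receptor of immune cells, rose by 1.24 (SE 0.24, edgeR adjusted p = 0.0211) on the log2 scale and none fell. Its level was 4.59 ± 0.901 CPM (SD, n = 4) in Ctrl against 10.9 ± 3.02 CPM (SD, n = 6) in CKO. Of 10 tested fibril-binding proteoglycans, Aspn rose by 1.19 (SE 0.28, edgeR adjusted p = 0.0473) on the log2 scale while Podn, encoding podocan, had a log2 fold change of -1.13 (SE 0.15, edgeR adjusted p = 0.00319). Podn stood at 61.9 ± 6.79 CPM (SD, n = 4) in Ctrl against 28.2 ± 6.14 CPM (SD, n = 6) in CKO, and every CKO library lay below every Ctrl library.

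Markers of the cells that could hold collagen transcripts moved in part with the collagens, and their counts stand beside 1.54% of all tested genes called higher and 1.26% called lower. Of 10 markers of endothelium, Vwf rose by 1.04 (SE 0.21, edgeR adjusted p = 0.0263) on the log2 scale and none fell. The list sum was 1366 to 2077 CPM over the Ctrl libraries and 2350.1 to 3081 CPM over the CKO libraries, without overlap. Vwf carried most of this: without it the sum was 950.1 to 1261 CPM (Ctrl) and 1237 to 1409 CPM (CKO), with overlap. The list had a median of 0.21 on the log2 scale. Of 10 markers of activated fibroblasts, 2 rose, Postn by 2.00 (SE 0.36, edgeR adjusted p = 0.0155) and Meox1 by 0.88 (SE 0.20, edgeR adjusted p = 0.0464) on the log2 scale, and the sum was 1193 to 1639.7 CPM over the Ctrl libraries and 1587 to 3082 CPM over the CKO libraries. Without Postn that sum was 1028 to 1495 CPM (Ctrl) and 1109.9 to 1965 CPM (CKO). Of 12 general fibroblast markers none was called and 8 fold changes were above 0. All 12 together had a median of 0.32 on the log2 scale. Their sum was 6363 to 9362 CPM over the Ctrl libraries and 5589 to 7148 CPM over the CKO libraries. It was led by Gsn and Dpt, with log2 fold changes of -0.55 and 0.40. Gsn made up most of it, with means of 6545 CPM in Ctrl and 4465 CPM in CKO, so the sum mainly follows Gsn. Of 8 macrophage markers 3 rose, Cd68 by 1.15, Cd163 by 0.72 and C1qb by 0.83 on the log2 scale, and the sum was 890.0 to 1850.0 CPM over the Ctrl libraries and 1335 to 2541 CPM over the CKO libraries. Of 9 markers of smooth muscle and pericytes none was called, at 1057 to 1317 CPM over the Ctrl libraries and 1047 to 1306 CPM over the CKO libraries, with Rgs5 and Myh11 at log2 fold changes of 0.01 and -0.26. Fold changes above 0 numbered 9 of 10 for endothelium, 10 of 10 for activated fibroblasts and 8 of 8 for macrophages. They numbered 7 of 9 for smooth muscle and pericytes, where 46.6% of all tested genes were above 0. No marker of these 5 lists was at 0 in all libraries, and their part in the collagen differences was not tested. Of 10 heart muscle markers 1 was called higher and 2 lower, with log2 fold changes of 0.73 for Tnnt2, -0.90 for Myl4 and -2.61 for Myl7. Of 8 Schwann cell markers 1 was called lower (Kcna1), at a summed level of 322 to 497 CPM over the Ctrl libraries and 325 to 483 CPM over the CKO libraries. Scn7a made up most of this sum, with means of 317 CPM in Ctrl and 324 CPM in CKO. Of the 8 fold changes 6 were below 0, with a median of -0.49 on the log2 scale. No marker was called among the 4 tested for cartilage, where Snorc was at 0, the 5 for airway, the 7 for adipocytes and the 6 for mesothelium. The cartilage sum was 44.4 to 87.5 CPM over the Ctrl libraries and 42.2 to 64.9 CPM over the CKO libraries. The airway sum, led by Bpifa1 and Scgb1a1, was 3.17 to 3942 CPM over the Ctrl libraries and 0.420 to 6557 CPM over the CKO libraries. For adipocytes, led by Fabp4 and Cfd, it was 1432 to 2549 CPM over the Ctrl libraries and 519.7 to 2814 CPM over the CKO libraries, and for mesothelium, led by Upk3b and Msln, it was 193 to 559 CPM over the Ctrl libraries and 205 to 646 CPM over the CKO libraries. All 7 adipocyte markers had fold changes below 0.

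For the atrial appendage, the pouch of the left atrium profiled in an earlier study, values come from the authors' deposited table, which lists 30 of the 43 collagen genes among 13646. At a false discovery rate under 0.05 in the authors' deposited table, the appendage of CKO mice had higher levels than that of controls for 25 of the 30 genes, where 16.8% of all its genes were higher. There 2 genes were lower, Col6a5 and Col6a6, where 17.9% of all genes of the authors' deposited table were. In the peri-pulmonary vein comparison of the authors' deposited table, 4 collagen genes were higher (Col8a1, Col5a2, Col16a1 and Col5a1), where 3.03% of all genes were, and 0 were lower, where 2.47% were. Col4a1, called by edgeR here, lay just outside that threshold (false discovery rate 0.0521), while Col5a1 and Col5a2 passed it but were not called by edgeR here. The appendage log2 fold change of the authors' deposited table was above that of the peri-pulmonary vein for 27 of the 30 genes, with medians of 1.19 and 0.43. Over all its genes the medians were 0.02 and -0.01, and the share of all genes with the higher value in the appendage was not computed. The appendage comparison also called more of all genes in both directions, and the difference between the tissues was not tested.

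By class, all 7 listed fibrillar genes were higher in the appendage, with a median log2 fold change of 1.71 in the authors' deposited table, as were all 6 type IV genes (median 0.85) and 12 of 17 others (median 1.16). For Col5a2 the authors' deposited table gave log2 fold changes of 2.41 in the appendage and 0.76 in the peri-pulmonary vein tissue. For Col8a1 the authors' deposited table gave 2.70 in the appendage and 1.499 in the peri-pulmonary vein tissue, the highest value of all collagen genes in the latter. Col12a1 had a log2 fold change in the appendage of the authors' deposited table of 4.33, against 0.62 in the peri-pulmonary vein (false discovery rate 0.195). Col9a2, a cartilage chain with 41 counts over the 10 libraries here, had 6.00 in the appendage in the authors' deposited table. Col8a2 had 2.55 in the appendage and 0.38 in the peri-pulmonary vein tissue in the authors' deposited table.

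A further comparison in the authors' deposited table sets the peri-pulmonary vein tissue against the appendage, and the libraries that entered it are not given in the sources used here. If its appendage libraries came from the earlier study, a difference between tissues and a difference between studies cannot be told apart in it. Positive values were taken to mean higher in the peri-pulmonary vein tissue, since the airway gene Scgb1a1 has a log2 value of 13.8 there. Of the 30 collagen genes 12 were higher in the peri-pulmonary vein tissue (8.19% of all genes of the authors' deposited table) and 2 were lower, Col23a1 and Col4a4 (4.06%). Fibrillar genes were higher in 6 of 7 cases in the authors' deposited table, at a median log2 difference of 0.74. The 6 type IV genes had a median of -0.38 in the authors' deposited table, with 5 of 6 below 0 and 1 called. Col12a1 had the highest value of the collagen genes, 4.09, in the authors' deposited table. This comparison and both CKO comparisons may share control libraries, so no relation between their values is given.

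**Figure D5:**
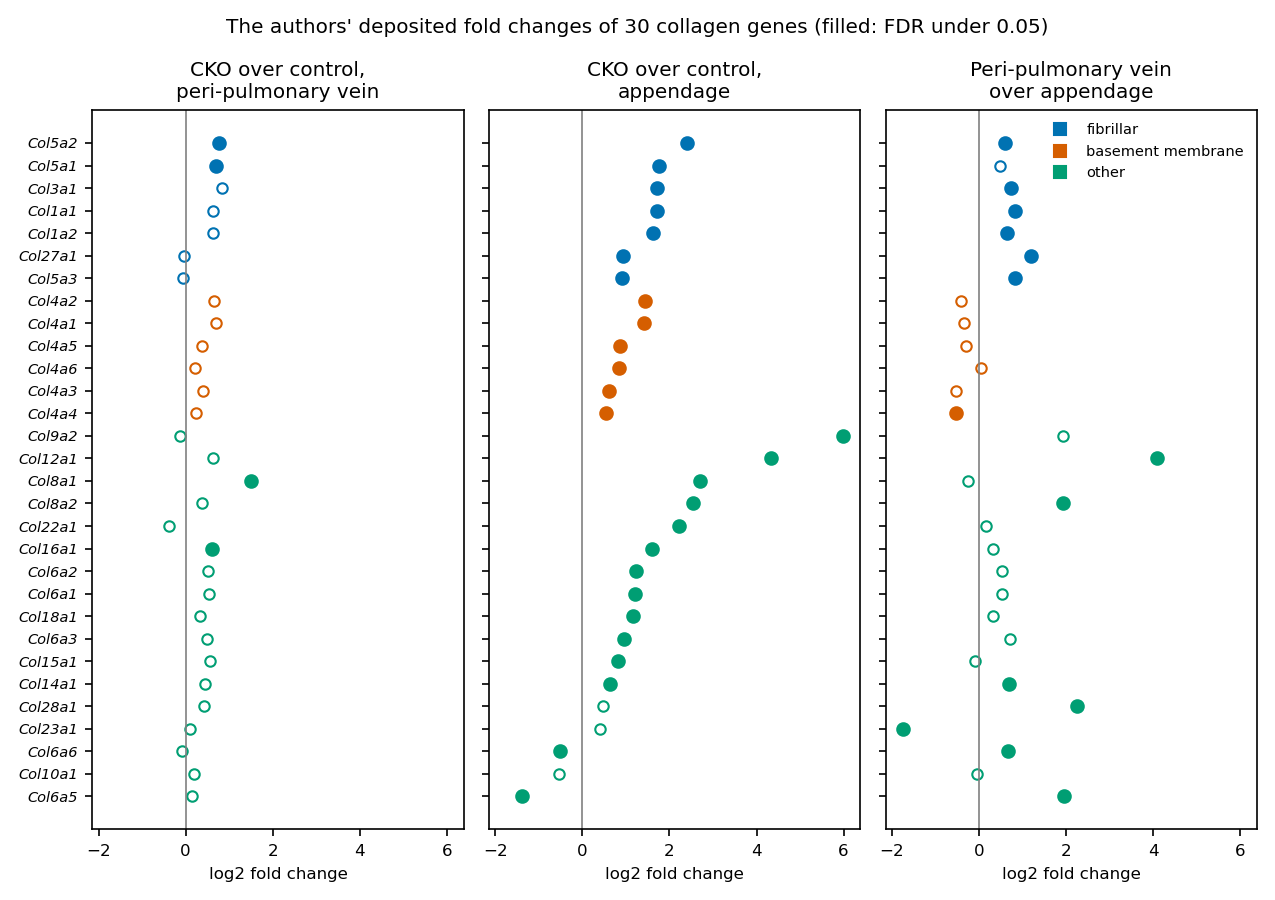
The authors' deposited log2 fold changes of 30 collagen genes in 3 comparisons, by class, with filled points for a false discovery rate under 0.05. In the appendage 27 of the 30 points are filled, 25 of them above 0, while 4 are filled in the peri-pulmonary vein comparison.

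The p-values measure the spread between these mice. Some collagen exons overlap genes on the opposite strand, and the named library kit does not mark strand, so reads there cannot be assigned with certainty.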

How the data were processed

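RNA of 10 libraries (4 Ctrl, 6 CKO) was made into libraries with a TruSeq kit. The labels give polyA RNA as the molecule, whereas the labels' protocols describe removal of ribosomal RNA. Per the submitters' processing notes, reads were aligned to mm10 (GRCm38) with TopHat2 2.1.1 and assigned to transcripts with StringTie 1.3.3, with tests in limma 3.32.10 and edgeR 3.18.1 under R 3.4.0. The deposited table holds estimated counts per gene. Per the file headers, the transcript files that the authors deposited give coverage and TPM. In 545309 of 545320 gene values the estimated count equalled coverage multiplied by transcript length and divided by 50, the read length, with each transcript rounded up before summing, and the largest difference was 1. The authors' deposited table gives log2 fold changes, p-values and false discovery rates, whose model is not given in the sources used here. The count table has 10 further columns that belong to no sample of this series, and these were not used.

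For the count analysis edgeR 4.0.16 was run under R 4.3.3 (filterByExpr, TMM, quasi-likelihood F test, genotype as the only term, Benjamini-Hochberg over 17752 of 33196 genes with any count, threshold 0.05) and tested on simulated data. The SE of a log2 fold change was obtained by dividing it by the root of its F value. TPM was summed per gene. The alternatives used DESeq2 1.42.0, limma 3.58.1 on log2(TPM + 1), other filters and scalings, libraries left out, a replicate block and Xist. Same-numbered libraries deviated with correlations of 0.0313, 0.0876, -0.319 and 0.0894, so replicate numbers were not taken as pairs. The members and lists were chosen with earlier results of these data known. Values in each Ctrl library, with the lowest, median and highest CKO value, are given for collagen genes that passed the threshold, for those whose groups did not overlap, for the 2 highest in mean TPM of each class, and for most of their partner chains, the others being given as mean and SD. Of the other lists the called genes are named, or the most abundant.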

Additional observations from a re-analysis of the deposited data

Results flagged for a closer look

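In 2 of the 40 groups of libraries tested for an outlying value, 1 library stood apart from the rest of its group, as chance gives in about 1 of 20 groups. Col8a1 stood at 38.0 CPM in Ctrl 4, below the other Ctrl libraries, with the gap to the next taking 0.847 of the group's range. Col4a6 stood at 55.7 CPM in Ctrl 3, above the other Ctrl libraries, with the gap taking 0.834 of the range.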

How the results depend on the processing

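The count of 3 collagen genes called higher became 11 with DESeq2 (which added Col1a1, Col1a2, Col3a1, Col4a2, Col4a5, Col5a1, Col5a2 and Col6a1), 6 with Xist as a covariate, 1 within the libraries of high Xist and 0 within those of low Xist. Over all genes, 692 were called higher with DESeq2 and 351 of 17752 with Xist as a covariate. Within high Xist 109 of 17778 genes were called higher, and within low Xist 3 of 18482. Fewer libraries enter the fits within high or low Xist, and apart from that the cause was not tested. With the replicate number as a block 0 were called, where the block left 37 calls over all genes against 497. Replicate numbers were not taken as pairs, and why fewer genes were called was not tested. With the block the log2 fold changes of Col8a1, Col16a1 and Col4a1 were 1.33, 0.58 and 0.73, against 1.52, 0.62 and 0.71 without it. The median over the 36 tested collagen genes was 0.41 with the block and 0.39 without it. Leaving out single libraries gave 2 to 4 collagen genes called higher, where 87 to 302 of all genes were. The count called lower was 0 in each fit that left out a single library. It was 0 in the other alternatives too, except within high Xist, where it was 1 (Col13a1) and 163 of 17778 genes were. Col13a1 did not pass the filter of the main fit. Within high Xist it passed only through Ctrl 1 and Ctrl 2, with 30 and 49 counts against 0 in CKO 1 to 3. Its call thus shows no more than those counts. Col8a1 was called in 19 of the 21 alternatives, Col4a1 in 17 and Col16a1 in 8, and all 3 had a fold change above 0 in all 21. The log2 ratio of the basement membrane sums was 0.60 in CPM and 0.42 in TPM, and the cause was not tested. On log2 TPM with limma the median of all genes moved from -0.03 to -0.15, and that of the collagen genes was 0.25. There Col4a1 (limma adjusted p = 0.0665) and Col16a1 (0.1445) were no longer called, and Col8a1 and Col5a1 were. Of the 36 tested genes 8 changed sign in at least 1 alternative (Col5a3, Col6a5, Col6a6, Col17a1, Col20a1, Col23a1, Col25a1 and Col27a1), none of them called and each with a reported log2 fold change within 0.204 of 0. The 7 untested genes had 9 to 102 counts over all libraries.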
